A study of Mus musculus with 2 samples.

Results

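The genes described here encode the proteasome, its inducible immune form and its regulators. They were chosen by symbol: every gene whose symbol begins with Psma, Psmb, Psmc, Psmd, Psme, Psmf or Psmg followed by a digit and that is the only gene listed for a probe set (a group of array probes read as 1 value). This gave 56 probe sets for 50 genes, out of 21789 single-gene probe sets for 19938 genes. The DSS array held RNA of mouse colonic macrophages from animals given 3% (wt/vol) dextran sulfate sodium (DSS, a sulfated polysaccharide that damages the colonic epithelium and causes colitis) in drinking water for 5 days, and the control array held RNA of the same sorted population from animals on plain drinking water for 5 days. Both populations came from the lamina propria, the tissue under the gut epithelium, and were sorted as CD45+, IAb+, CD11b+, F4/80+ and CD103- cells. The labels give no strain, age, sex or number of animals, and with 1 array a group every difference compares 2 arrays and carries no replicate error, no standard error and no p-value.

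The proteasome degrades proteins tagged with ubiquitin. Its barrel-shaped core, the 20S particle, has outer rings of alpha subunits and inner rings of beta subunits, and the beta subunits Psmb5, Psmb6 and Psmb7 carry the cutting sites. The 19S cap recognises ubiquitin, unfolds the substrate with a ring of ATPases and feeds it into the core. Interferon gamma and other inflammatory signals induce the alternative catalytic subunits Psmb8, Psmb9 and Psmb10, which take the places of Psmb5, Psmb6 and Psmb7 in newly built cores, and the PA28 activator, a ring of Psme1 and Psme2 that can sit on the core in place of the cap. The resulting immunoproteasome is known for producing peptides suited to MHC class I presentation, and macrophages and other immune cells hold some of it without stimulation.

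Values are log2 signals from RMA, and each difference is DSS minus control on that scale. A gene entered counts when its signal reached the array median (5.62 in DSS, 5.70 in control) on at least 1 array. Of the 50 genes 49 did so, and all 49 reached the median on both arrays, so the filter did not select on the difference. Psmb11 was the gene below it. Both arrays correlated with r = 0.975 across 28939 probe sets, which are not independent replicates.

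The sorted cells had the macrophage genes Csf1r (10.86 in DSS, 11.52 in control) and Cd68 (11.62 in DSS, 12.23 in control), both lower in DSS. Of 11 macrophage and sort genes, 6 were at least 1.5-fold lower in DSS and 2 at least 1.5-fold higher, 0 were 2-fold apart, and the median difference was -0.60 (-0.74 under loess centring, which removes the trend of the difference with signal). Marker genes of myeloid cell types differed: the summed linear signal of all 14 neutrophil genes was 33798 in DSS and 2083 in control. Of these genes 5 reached the median on both arrays, and all 5 were at least 2-fold higher in DSS, by differences of 1.20 to 4.83. Another 8, Ly6g (10.01 in DSS, 4.04 in control) among them, reached it in DSS only, so they could enter counts only by being high there, and 1 reached it on neither array. The summed signal of 8 monocyte genes was 17669 in DSS and 4256 in control, and of the 6 that reached the median on both arrays 5 were at least 2-fold higher and 1 was lower by as much. The summed signal of 8 resident macrophage genes was 3315 in DSS and 14787 in control, and of the 7 on both arrays 6 were at least 2-fold lower. Some genes of other cell types also reached the medians of both arrays. Of 7 T and NK cell genes with a value, 6 were below the medians of both arrays, the CD3 genes Cd3d, Cd3e and Cd3g among them, and Gzma passed in DSS only. Of 6 B and plasma cell genes 3 reached the medians of both arrays, with the plasma cell gene Jchain at 10.52 in DSS and 10.79 in control, while Ms4a1 was below both. Of 9 epithelial genes 3 reached both, with Krt8 at 8.05 in DSS and 7.97 in control, while Epcam was below both and Reg3b read 9.32 in DSS and 5.03 in control. Of 8 dendritic cell genes 5 reached both. Of these, 1 (Siglech) was at least 2-fold lower, while Flt3 and Ccr7 were 1.91-fold and 1.93-fold higher. Of 7 fibroblast and endothelial genes 5 reached both, with 0 of them 2-fold apart. Each proteasome difference below stands beside these values. In such bulk RNA a changed number of cells of a type and a changed amount of RNA per cell cannot be told apart, and the part of these other cell types in the proteasome values was not tested.

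Proteasome genes were mostly higher on the DSS array, by small amounts. The 49 genes had a median difference of 0.29, against -0.03 over the 11163 genes past the same filter. A difference above 0 was found for 41 of the 49 (83.7%), while 46.4% of all genes had one. In DSS 13 of the 49 (26.5%) exceeded 1.5-fold upward, against 9.85% of all genes. None of the 49 lay as far downward, against 8.8% of all genes. At least 2-fold higher were 2 genes, Psmb9 and Psme2, which is 4.08% of the 49 and near the 3.99% of all genes, so the 2-fold count says nothing particular about the proteasome. None was at least 2-fold lower, against 3.03% of all genes.

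Bright genes as a whole read higher on the DSS array, and most proteasome genes are bright. Among the 2190 genes with a mean signal of 9 or more, 63.5% had a difference above 0, 12.7% reached 1.5-fold upward and 6.53% reached it downward, and their median was 0.12. The 33 proteasome genes in that range had a median of 0.43, with 30 above 0 and 11 at least 1.5-fold higher. Under loess centring 41 of the 49 were again above 0 (48.8% of all genes), but only 6 of the 49 (12.2%) were at least 1.5-fold higher, against 9.67% of all genes, and 0 were 2-fold higher. These 6 were Psme2, Psmb9, Psmb10, Psmd13, Psmb3 and Psmb8, of which 4 are inducible subunits.

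**Figure D1:**
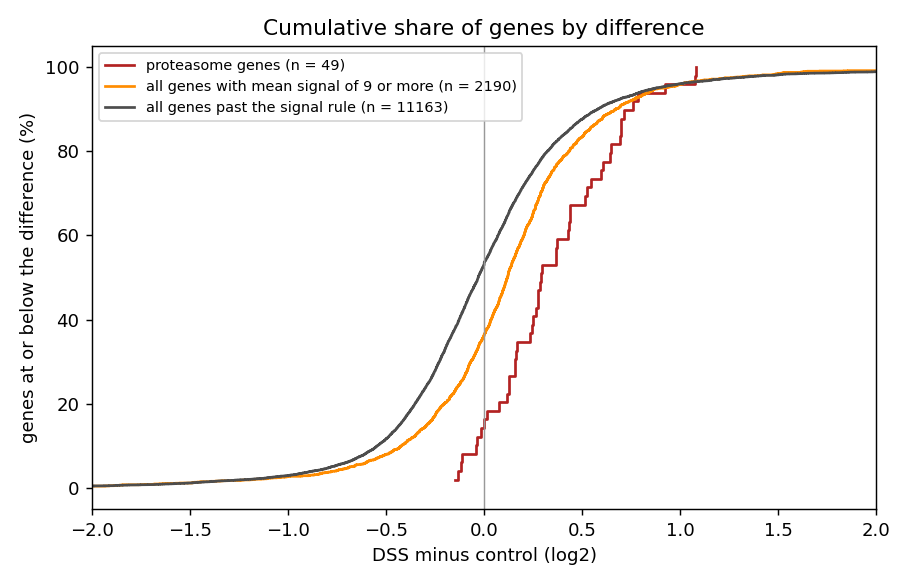
Cumulative share of genes (%) against the log2 difference, DSS minus control, for the 49 proteasome genes, for the 2190 genes with a mean signal of 9 or more and for all 11163 genes past the signal filter. The line of the proteasome genes lies to the right of both others at 0 and at 1.5-fold upward, and meets them near 2-fold upward. It starts at -0.15, its lowest gene.

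The 3 largest differences of the family were those of inducible subunits. Psmb9 (probe set 10450145), the inducible beta1 subunit also called LMP2, read 11.76 in DSS and 10.68 in control, a difference of 1.08 or 2.12-fold. Psme2, the beta chain of PA28, read 10.26 in DSS and 9.19 in control, which is 2.11-fold. Psmb10, the inducible beta2 subunit (MECL-1), read 9.14 in DSS and 8.21 in control, or 1.90-fold. By the brightest probe set of each gene, these 3 genes lay above all 31 constitutive core and cap subunits. For Psmb10 (0.92) the margin was narrow, beside 0.79 for Psmd13 and 0.91 for the dimmer probe set of Psmb3. Both margins are below the probe set SD of 0.28 described below.

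The remaining inducible genes overlapped the constitutive ones. Psmb8, the inducible beta5 subunit (LMP7), read 10.47 in DSS and 9.75 in control, or 1.64-fold, and 2 of the 31 constitutive subunits differed by as much or more. Psme1, the alpha chain of PA28, read 11.60 in DSS and 11.16 in control, or 1.35-fold, and 12 of the 31 did so. Under loess centring these counts were 2 and 13. Psme1 and Psme2 form one ring, and their differences were 0.44 and 1.07.

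As a group the 5 inducible genes had a median difference of 0.92, against 0.30 for the 31 constitutive subunits, a gap of 0.63. Loess centring gave 0.86 and 0.19, a gap of 0.67. For scale, probe sets of the same gene differed with a pooled SD of 0.28 in 638 genes, and the differences of all genes had a robust SD of 0.39. The first value measures disagreement between probe sets and holds no replicate error.

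**Figure D2:**
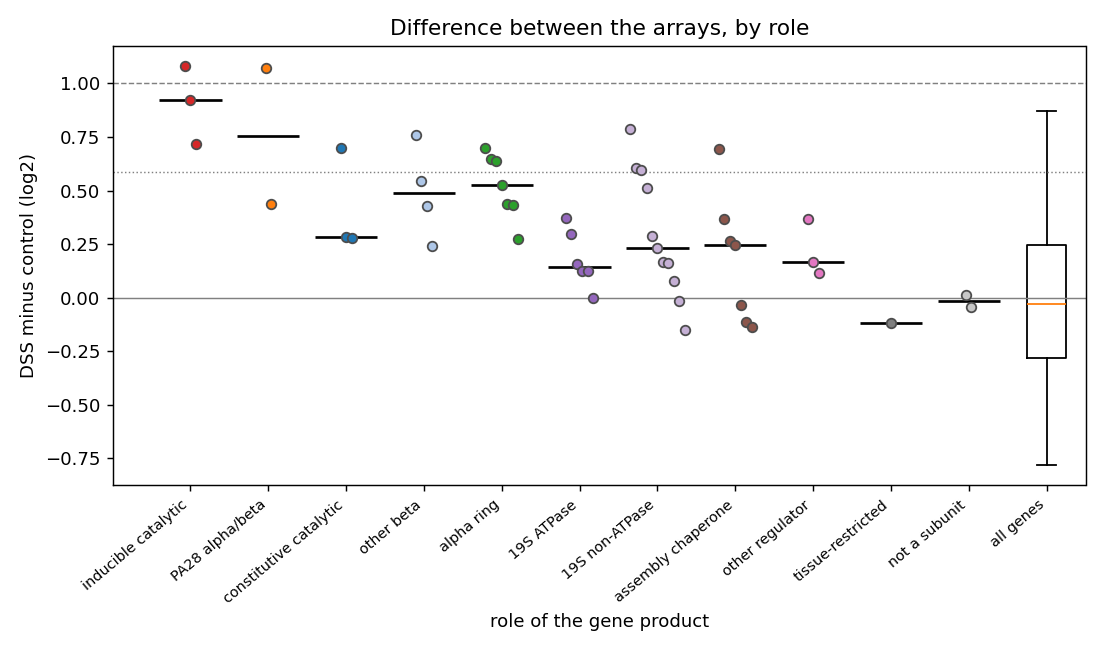
Log2 difference, DSS minus control, for each of the 49 genes past the signal filter, by role, with a bar at each group's median. The box at the right spans the quartiles of all 11163 genes, with whiskers at the 5th and 95th percentiles, and the dotted and dashed lines mark 1.5-fold and 2-fold. The inducible catalytic genes (median 0.92) sit highest and the 19S ATPases (median 0.14) lie low among the subunit groups.

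At each cutting site the inducible gene had the larger difference of its pair. At the beta1 position Psmb9 differed by 1.08 and Psmb6, the constitutive caspase-like subunit, by 0.28 (11.01 in DSS, 10.73 in control), so the inducible gene was higher by a further 0.80, or 1.74-fold. At the beta5 position Psmb8 differed by 0.72 and Psmb5, the chymotrypsin-like subunit, by 0.28 (10.23 in DSS, 9.95 in control), a gap of 0.44. At the beta2 position the gap was the smallest, at 0.23, since Psmb7, the trypsin-like subunit, itself differed by 0.70 (10.78 in DSS, 10.08 in control) beside 0.92 for Psmb10. That last gap is below the pooled probe set SD of 0.28. The SD belongs to the difference of 1 probe set, so the scale for a gap between 2 genes is wider. The beta5 gap is not clearly beyond that wider scale. Loess centring gave gaps of 0.79, 0.44 and 0.29 for beta1, beta5 and beta2.

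**Figure D3:**
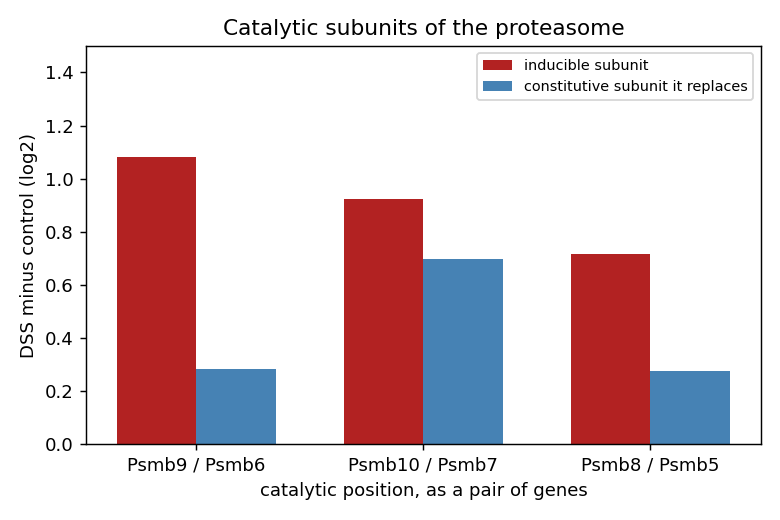
Log2 difference, DSS minus control, of each inducible catalytic gene (left bar of a pair) and of the constitutive gene whose place it takes (right bar), 1 value a bar from 1 array a group. The gap is widest for Psmb9 and Psmb6 (0.80) and narrowest for Psmb10 and Psmb7 (0.23).

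All inducible genes but Psmb10 lie close to another inducible gene. In the RefSeq gene table (assembly GRCm38.p6) the order is Psmb9, Tap1, Psmb8, Tap2, with differences of 1.08, 1.64, 0.72 and 0.42. Tap1 and Tap2 encode the transporter that carries proteasome products into the endoplasmic reticulum. Psmb9 and Tap1 are transcribed away from each other, with 225 bases between their annotated first bases, and these genes had the largest differences of the proteasome family and of the class I list. Psme1 and Psme2 are separated by Emc9, which differed by -0.31, a subunit gene of a membrane protein insertion complex.

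Promoter windows of RefSeq (GRCm38.p6), reaching from 250 bases before to 50 after each annotated start, were found for 42 of the 50 genes. They were searched on both strands for the core of the interferon-stimulated response element (GAAA, any 2 bases, GAAA), the gamma-activated site (TTCNNNGAA), the antioxidant response element (TGACNNNGC), through which NRF1 and NRF2 are known to act, and the CCAAT box. No match in a proteasome window overlapped a match of another motif. Genes without a window, the constitutive catalytic gene Psmb7 among them, were not searched. The stretches printed here carry the shared start region of Psmb9 and Tap1 and the matches at the inducible and constitutive catalytic genes and at Psme1, with matched letters in capitals.
Psmb9, all bases between its start and that of Tap1, chr17:34187331-34187555, minus strand: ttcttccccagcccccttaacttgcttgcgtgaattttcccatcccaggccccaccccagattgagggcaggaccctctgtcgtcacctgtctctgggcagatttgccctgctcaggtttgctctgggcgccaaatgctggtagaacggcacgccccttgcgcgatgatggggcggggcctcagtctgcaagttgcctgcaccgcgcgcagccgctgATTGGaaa
Psmb8, bases before its start, chr17:34198065-34198194, plus strand: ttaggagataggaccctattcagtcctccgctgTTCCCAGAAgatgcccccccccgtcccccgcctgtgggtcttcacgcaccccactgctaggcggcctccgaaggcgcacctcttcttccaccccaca
Psmb5, bases before its start, chr14:54617996-54618125, minus strand: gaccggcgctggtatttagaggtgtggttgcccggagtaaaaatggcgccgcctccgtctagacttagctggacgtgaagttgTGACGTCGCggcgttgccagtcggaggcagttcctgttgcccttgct
Psmb6, bases before its start, chr11:70525227-70525356, plus strand: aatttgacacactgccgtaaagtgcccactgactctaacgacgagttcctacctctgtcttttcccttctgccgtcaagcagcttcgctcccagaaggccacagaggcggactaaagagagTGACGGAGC
Psme1, around its start, chr14:55578493-55578522, plus strand: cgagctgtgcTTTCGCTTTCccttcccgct

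In these sequences the capitals mark a CCAAT box read on the opposite strand, 8 bases before the start of Psmb9, a gamma-activated site 97 bases before the start of Psmb8, antioxidant response elements 47 and 9 bases before the starts of Psmb5 and Psmb6, and an interferon-stimulated response element core on the opposite strand from base 10 of the Psme1 transcript. Among the 5 inducible genes, 1 (Psme1) held the interferon element core, 1 (Psmb8) the gamma-activated site, 0 the antioxidant element and 1 (Psmb9) a CCAAT box, and the windows of Psmb10 and Psme2 held none of the 4 motifs. Of 25 constitutive subunit genes with a window, 2 (8.0%) held the interferon element core, 1 (4.0%) the gamma-activated site, 4 (16.0%) the antioxidant element and 10 (40%) a CCAAT box. Over all 32851 windows the shares were 3.44%, 8.3%, 12.4% and 37.4%. These count single windows, while a gene was counted when any of its windows held the motif. The 42 proteasome genes had 46 windows, so the shares of genes and of windows are not quite alike. A match describes the letters of a window and is not a binding site.

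The constitutive 20S core was higher in DSS in every gene. All 14 constitutive core subunits had a difference above 0, also under median and loess centring, with a median of 0.48 and a range of 0.24 to 0.76. At or above 1.5-fold were 5 of the 14 (35.7%), against 9.85% of all genes and 12.7% of bright genes, but under loess centring the median was 0.34 and only Psmb3 stayed at that size. In the alpha ring, which forms the gate of the core, the values were 11.44 in DSS and 10.75 in control for Psma5, and 10.43 in DSS and 9.78 in control for Psma2. Psma4 read 10.38 in DSS and 9.74 in control, and Psma1 11.05 in DSS and 10.53 in control. Psma6 read 11.76 in DSS and 11.33 in control, Psma7 11.93 in DSS and 11.50 in control, and Psma3 11.97 in DSS and 11.70 in control. The alpha ring median was 0.52, and Psma3 had its smallest difference, 0.27.

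Among the beta subunits without a cutting site, Psmb3 had the largest difference, at 10.10 in DSS and 9.34 in control (1.69-fold). Psmb1 read 10.25 in DSS and 9.71 in control, Psmb2 10.41 in DSS and 9.98 in control, and Psmb4 11.99 in DSS and 11.75 in control. The median of these 4 genes was 0.49, so the structural beta genes lay near the alpha ring, and Psmb5 and Psmb6 (0.28 each) lay at the low end of the core.

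The 19S cap differed less than the core. Its 17 subunits found by the symbol rule had a median difference of 0.16, with 14 above 0. Sem1, a small cap subunit outside that rule, differed by 0.44 and is not counted among them. At or above 1.5-fold were 3 (17.6%), above the 9.85% of all genes and near the 12.7% of bright genes. Under loess centring only Psmd13 stayed at that size. The core median lay 0.32 above that of the cap; this comparison was added after the values were seen, and loess centring gave 0.19. The ATPases that unfold the substrate had a median of 0.14. Psmc4 read 9.33 in DSS and 8.96 in control, Psmc6 9.91 in DSS and 9.61 in control, Psmc1 10.32 in DSS and 10.16 in control and Psmc2 9.46 in DSS and 9.33 in control. Psmc5 (11.04 in DSS, 10.92 in control) turned negative under loess centring, and Psmc3 (9.72 on both arrays) turned positive under median centring, so neither has a direction here.

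The cap subunits without ATPase activity spread more widely, with a median of 0.23. Psmd13, a structural subunit of the lid, had the largest gene value outside the inducible genes, at 8.70 in DSS and 7.92 in control (1.72-fold). That rank rests on the brightest probe set of each gene, since the dimmer probe set of Psmb3 differed by 0.91. Psmd14, the enzyme that removes ubiquitin from the substrate, read 10.64 in DSS and 10.03 in control (1.52-fold), and Psmd4, a ubiquitin receptor, 9.65 in DSS and 9.05 in control (1.51-fold). Psmd8 differed by 0.51, and the lid subunits Psmd6, Psmd11, Psmd12 and Psmd3 by 0.29, 0.23, 0.16 and 0.08. Psmd7, the partner of Psmd14, read 9.24 in DSS and 9.07 in control.

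The large scaffold subunits of the base had small differences. Psmd1 read 9.77 in DSS and 9.92 in control, a difference of -0.15 that was the lowest of the family. It stayed below 0 under both centrings but is smaller in size than the pooled probe set SD of 0.28. Psmd2 read 9.44 in DSS and 9.46 in control by its brighter probe set and 9.14 in DSS and 8.96 in control by the other, so no direction is given for it.

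**Figure D4:**
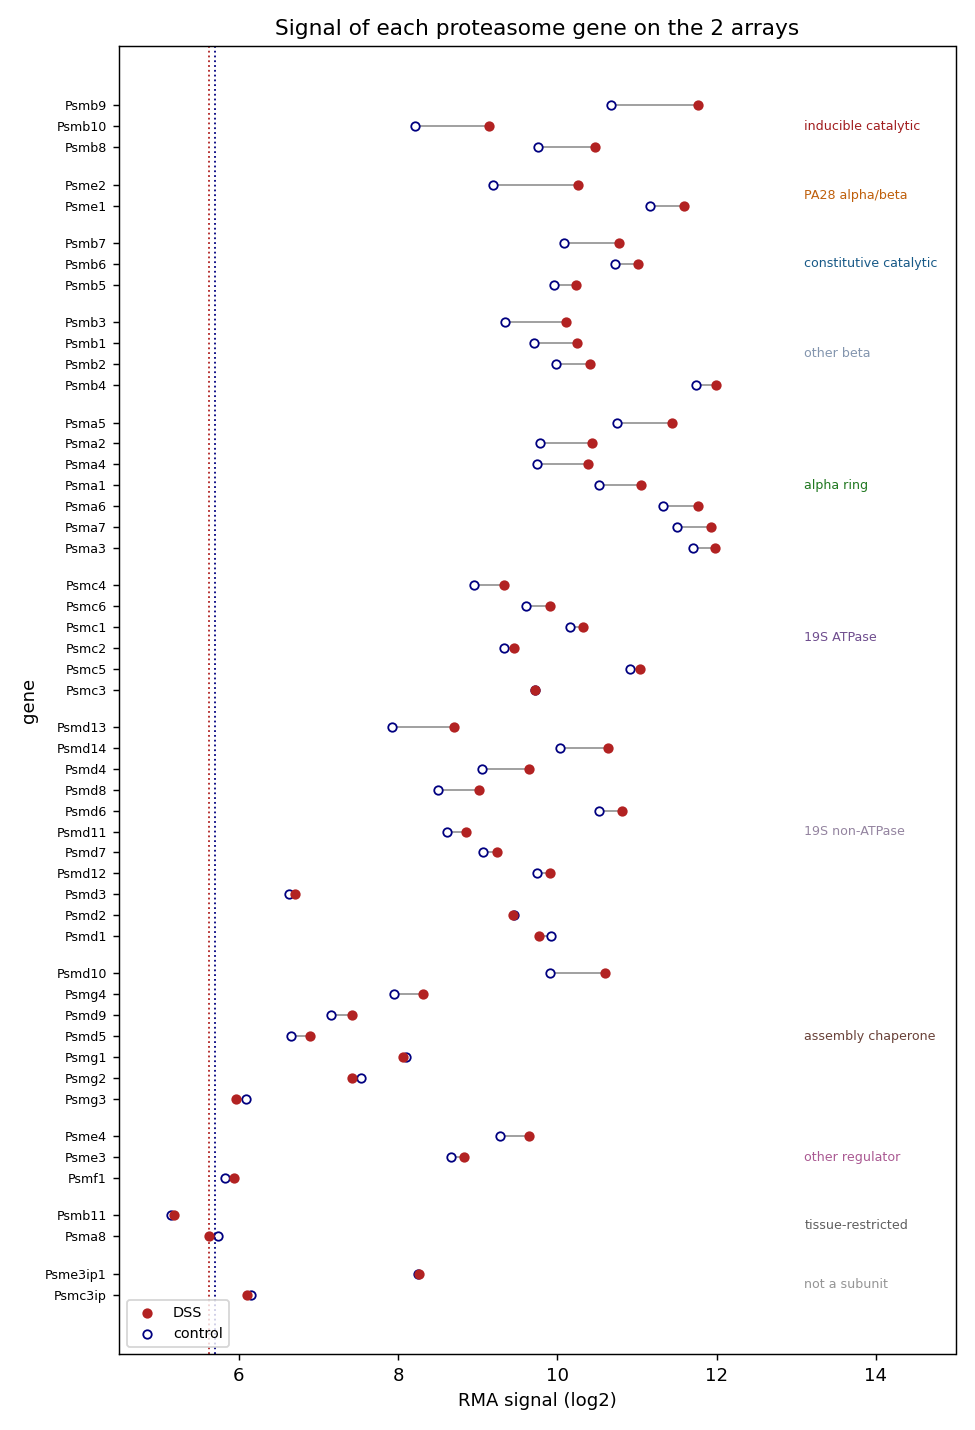
RMA signal (log2) of all 50 genes on the DSS array (filled) and the control array (open), grouped by role and ordered by difference within a role, with dotted lines at the array medians of 5.62 and 5.70. Connecting lines are longest for Psmb9, Psme2 and Psmb10, and short for the ATPases and for Psmd1 and Psmd2. Signals of different genes come from different probes and are not comparable as amounts.

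Among assembly factors only Psmd10 and Psmg4 differed by more than the pooled probe set SD of 0.28, both upward. Psmd10, also called gankyrin, a chaperone of the cap base, read 10.59 in DSS and 9.90 in control (1.62-fold), while the base chaperones Psmd5 and Psmd9 differed by 0.25 and 0.27. Psmg1 and Psmg2, which pair to build the alpha ring, differed by -0.03 and -0.11. Psmg3 and Psmg4, which also pair in that step, differed by -0.14 and 0.37. The sign of Psmg1 turned under median centring. Of the 7 assembly genes 1 (14.3%, against 9.85% of all genes) was at least 1.5-fold higher, a count too small to tell from that share. The median was 0.25.

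Other regulators lay within 1.5-fold. Psme4, the PA200 activator, read 9.64 in DSS and 9.28 in control, Psme3, the nuclear PA28 gamma, 8.83 in DSS and 8.66 in control, and Psmf1, the inhibitor-like protein PI31, 5.94 in DSS and 5.82 in control, near the array medians. Psma8, a testis form of an alpha subunit, read 5.62 in DSS and 5.74 in control, and Psmb11, the thymus form of beta5, 5.18 in DSS and 5.15 in control. Both read near or below the array medians and cannot be told from background. The symbol rule also took in Psmc3ip, a meiotic recombination factor (6.11 in DSS, 6.15 in control), and Psme3ip1, a partner of Psme3 (8.26 in DSS, 8.25 in control), which are not subunits. The signs of Psma8, Psmc3ip and Psme3ip1 turned under a centring.

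Probe sets of the same gene mostly gave like values. Of the 50 genes 5 had more than 1 probe set. Psma3 had 3, with differences of 0.23, 0.27 and 0.27. The differences were 0.70 and 0.81 for Psma5, 0.76 and 0.91 for Psmb3, 0.16 and 0.12 for Psmc1 and -0.02 and 0.18 for Psmd2. RefSeq lists 6 pseudogenes among proteasome symbols, of Psma5, Psmb5, Psmb6 and Psmb7, and probes shared with such copies cannot be separated in these values.

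Genes that handle the products of the proteasome differed in part. In the list of the class I peptide pathway, 10 of 12 entries had a value, 1 (against 3.99% of all genes) was higher by 2-fold or more, 0 were lower by as much and the median was 0.28. Tap1 read 8.15 in DSS and 6.52 in control (3.11-fold), and Tapbpl, a peptide editor, 7.91 in DSS and 7.24 in control (1.59-fold). Tapbp, which links the transporter to class I, and Erap1, which trims the peptides, differed by 0.50 and 0.44. B2m, the class I light chain, read 12.46 in DSS and 12.33 in control and turned negative under loess centring. Tap2 differed by 0.42 and the chaperone gene Calr by -0.26. Nlrc5, a transcriptional activator of class I genes, differed by -0.24 in its brightest probe set and 0.63 in its dimmest, so it has no direction here.

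Genes of the interferon gamma response had a higher median than the proteasome as a whole. Of 18 entries 15 had a value, of which 5 (33.3%) were higher by 2-fold or more and 0 lower by as much, against 3.99% and 3.03% of all genes. Their median was 0.66. Cxcl9 was 6.54-fold, Gbp5 5.93-fold, Irgm1 4.27-fold and Iigp1 2.49-fold higher in DSS. Irf1, the factor known to act on the promoters of the inducible subunits, read 9.69 in DSS and 8.85 in control (1.78-fold), and Socs1, a feedback inhibitor, differed by -0.26. The receptor chains Ifngr1 and Ifngr2 and the receptor kinase Jak2, named after their values were seen, differed by 0.30, 0.29 and 1.08.

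Genes of the listed proteasome gene regulators went both ways. Among 10 with a value, 5 were above 0 and 5 below, and 0 were 2-fold apart. Their median was 0.07, against -0.03 over all genes. These are RNA values, and the activity of the factors was not tested. Nfe2l1, which encodes NRF1, the factor that raises proteasome genes when the proteasome is impaired, read 8.27 in DSS and 8.91 in control, which is 1.55-fold lower. Nfe2l2, which encodes NRF2, read 11.61 in DSS and 11.62 in control. Nfyb, a CCAAT-binding subunit, read 8.96 in DSS and 8.29 in control, and the small MAF partners Maff and Mafk differed by 0.29 and -0.48. Genes known as NRF2 targets went both ways, but their median of 0.96 was the highest of the 6 related lists. Of 8 past the filter 3 (37.5%, against 3.99% of all genes) were higher by 2-fold or more. By as much 1 was lower, against 3.03% of all genes. Slc7a11 was 8.17-fold, Gsr 6.76-fold and Gclm 2.05-fold higher, and Hmox1 was 3.37-fold lower.

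Partners of the proteasome did not share its median. Among 12 associated factors with a value, 0 were 2-fold apart and the median was -0.08. Pomp, which matures the beta rings, read 11.64 in DSS and 11.09 in control (1.47-fold), and Sem1, a small subunit of the cap, 12.10 in DSS and 11.66 in control. The ubiquitin shuttle gene Rad23b differed by -0.35 and Txnl1, a cap-bound thioredoxin, by 0.34. In the ubiquitin and VCP list 11 genes had a value, 0 were 2-fold apart and the median was 0.16. There Ube2l6, the conjugating enzyme of ISG15, differed by 0.49, Uba6, a ubiquitin-activating enzyme, by 0.40 and Ube4b by -0.32, with Ufd1 at 0.28. As another large complex of many subunits, the 76 mitochondrial ribosomal protein genes past the filter had a median of 0.14. Of these genes 4 (5.26%, against 9.85% of all genes) reached 1.5-fold upward and 1 reached it downward, against 8.8% of all genes. No test of the difference from the proteasome genes was possible.

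**Figure D5:**
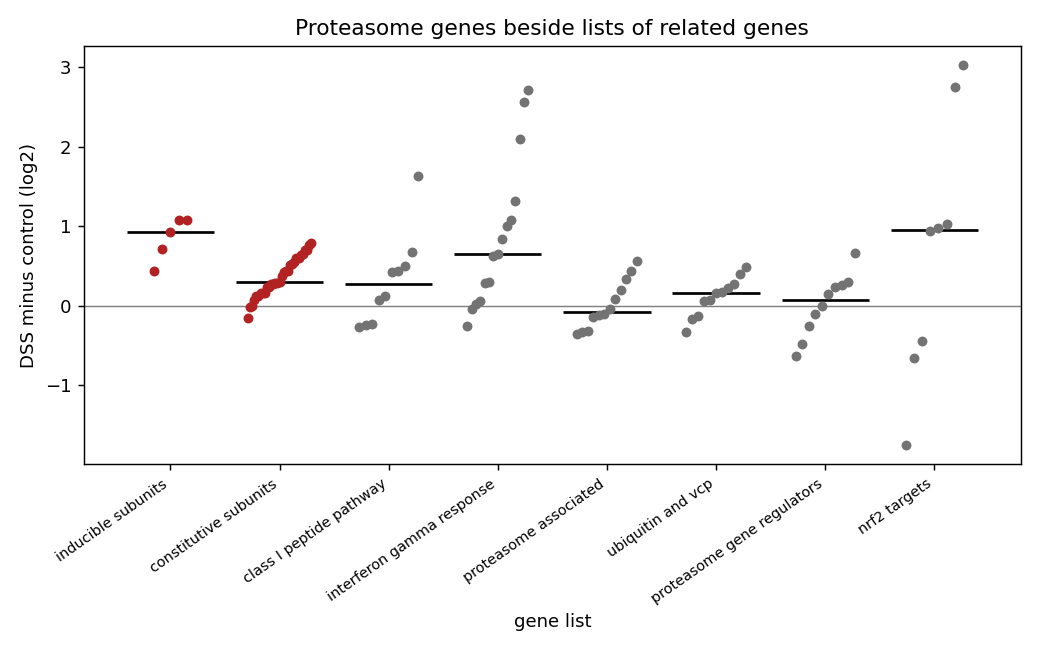
Log2 difference, DSS minus control, of the inducible and constitutive subunits and of the 6 lists of related genes, 1 point a gene past the signal filter and a bar at each median. Medians are 0.92 and 0.30 for the inducible and constitutive subunits, 0.28 for the class I pathway and 0.66 for the interferon gamma response. They are -0.08 for proteasome-associated factors, 0.16 for the ubiquitin and VCP list, 0.07 for proteasome gene regulators and 0.96 for NRF2 targets.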

How the data were processed

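Expression was measured on 1 array of colonic macrophages from DSS-treated mice and 1 of control mice, after amplification of 100 ng of total RNA per the labels' protocols. The authors deposited log2 signals for 35556 probe sets, made with RMA per the submitters' processing notes, which give no version. RMA includes background correction and quantile normalisation, which compress dim differences and can remove a global shift. Its settings are not given in the sources. No detection calls come with the values, and the number of arrays limits the precision. Scan or hybridisation batch and treatment cannot be told apart.

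Genes were named from the platform annotation, and all 50 symbols matched RefSeq (GRCm38.p6) by Entrez identifier. Where a gene had several probe sets, the brightest over both arrays was used, and probe sets listed for several genes were left out. Array medians rest on the 28939 probe sets from the lowest annotated identifier on. Folds are differences turned back from the log2 scale, and with no replicates no test was made. Every gene the symbol rule found is named. Of each related list the text names the genes with the largest differences, the 1 furthest the other way and fixed regulators. The members, lists and tests were chosen with earlier results of these data known. Alternatives were median centring, loess centring (span 0.4), other probe set rules, other signal filters, a floor at the 25th percentile, sizes of 1.5-fold and 3-fold, list means and other definitions of the inducible and constitutive groups. The steps were tested on simulated data. Python 3.11.15 with numpy 2.4.6, pandas 2.3.3, statsmodels 0.14.6 and matplotlib 3.10.9 was used.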

Additional observations from a re-analysis of the deposited data

Results flagged for a closer look

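A signal lay outside the gene values used above. The probe set listed for both Psme2b and Psme2 read 9.67 in DSS and 8.69 in control, a difference of 0.98 that is near the 1.07 of the probe set listed for Psme2 alone. Which of the genes it measures cannot be told apart.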

How the results depend on the processing

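Of 100 recomputed main values, 96 stayed within the pooled probe set SD of 0.28 or, for counts, within 1.5 times. Of the medians, gaps and pairs 0 changed sign. The 4 exceptions were counts of proteasome genes. At least 2-fold higher were 2 genes, but 0 under loess centring and 0 at a size of 3-fold, while 13 passed a size of 1.5-fold. At least 1.5-fold higher were 13, but 6 under loess centring. Many of the 100 values could hardly move, so the count of 96 is no measure of robustness. All 49 genes reached the median on both arrays, so other signal filters left their values unchanged. Other probe set rules could touch only 5 of the 50 genes. Median centring shifts every gene alike and cannot change a gap or a pair. Loess centring moved the proteasome genes by a median of -0.11 each. The inducible median ranged from 0.85 to 1.01, the constitutive one from 0.19 to 0.48 and their gap from 0.44 to 0.67. Of the 49 genes past the filter, 39 were above 0 on the deposited scale and under both centrings, 3 (Psmd1, Psmg2 and Psmg3) were below 0 on all 3 and 7 turned sign. All values of Psmd1, Psmg2 and Psmg3 were smaller in size than the pooled probe set SD of 0.28. No replicate could be left out with 1 array a group. No paired analysis was possible because each group has 1 array and the values come from no test.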
